A study of Mus musculus with 6 samples.

Results

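The guanylate-binding proteins (GBPs) and the immunity-related GTPases (IRGs) are 2 families of interferon-inducible GTPases. Of their genes, 10 were followed in cultures labelled as CD8+ T cells, activated with or without sphingosine-1-phosphate (S1P). The genes were taken by family name, with earlier results of these data known. They were Gbp2, Gbp3, Gbp4, Gbp5, Gbp6 and Gbp7 of the GBP family and Irgm1, Irgm2, Igtp and Iigp1 of the IRG family, and all 10 were found among the 56941 Ensembl identifiers of the count table through their GENCODE symbols. The labels describe both groups as naive CD8+ T cells purified from the spleen of B6 mice, with no genetic change named. The cells were activated for 3 days on plate-bound antibodies to CD3 and CD28 with recombinant IL-2 at 100 U/ml. After 24 h the culture received S1P at 5 µM in the S1P-treated group and the vehicle alone in the control group. Each group held 3 samples, which the labels number as biological replicates 1 to 3. The study's methods name purified naive T cells or total splenocytes as starting cells for such cultures, and the number of animals behind a sample is not given in the sources used here, so that p-values measure the spread between these samples. S1P is a lipid that signals through G protein-coupled receptors, among them S1PR1, and the comparison asked how its presence during activation altered transcription.

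GBPs are large GTPases of the dynamin superfamily that bind to the membranes of vacuoles holding parasites or bacteria, and some carry a lipid anchor added by prenyltransferases. IRGs are smaller GTPases of the mouse that act on the same vacuoles, where effector proteins such as Iigp1 are held in check by the regulators Irgm1, Irgm2 and Igtp (also known as Irgm3) and are directed by the ATG8 conjugation machinery. Genes of both families are classical targets of interferon gamma, which acts through a palindromic DNA element (the gamma-activated site, GAS), while type I interferon brings a complex with STAT2 and IRF9 to the interferon-stimulated response element (ISRE). Activated CD8+ T cells make interferon gamma themselves and also respond to it.

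Total counts were between 12048880 and 17384084 per sample, and 13299 genes had enough counts to be tested. The groups were compared by the quasi-likelihood test of edgeR on counts scaled by TMM factors, and a gene was called higher or lower at an adjusted p of at most 0.05 (Benjamini-Hochberg, over all 13299 genes) and a change of at least 0.3 log2 units. By this rule 23.1% of the tested genes were called, 12.7% higher and 10.4% lower after S1P, and the median log2 fold change of all tested genes was 0.01. CPM, the unit of the levels, are counts divided by the library total after TMM adjustment, and errors of log2 fold changes are standard errors (SE) of the fit. One library stood apart. This was S1P-treated replicate 2, with a mitochondrially encoded share of 7.80% beside 4.10% to 4.93% elsewhere, and calls of members that are lost without this library are given with and without it. Cd8a, a marker of the labelled cell type, was between 207 and 250.1 CPM in vehicle-treated samples and between 132 and 144 CPM in S1P-treated samples. Cd4 (186 to 254 CPM) and the B cell gene Ms4a1 (151 to 229 CPM) were at levels of the same order in all 6 samples. Both were above Cd8a in every S1P-treated sample. The markers thus do not show a pure CD8+ culture, and the share of each cell type was not tested. A lower number of cells of one type and less RNA per cell cannot be told apart in such bulk samples.

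With all samples in the fit, most GBP members rose after S1P, and no IRG member passed the test. Of the 6 GBP members, 4 rose (Gbp5, Gbp7, Gbp2 and Gbp3, by 1.25- to 1.55-fold) and none fell. The count was 2 of 6 without S1P-treated replicate 2 or vehicle-treated replicate 2. It was also 2 with total count scaling or without a filter on low counts. None of the 4 IRG members was called in either direction by edgeR, DESeq2 or limma-voom, and 0 of them had an unadjusted p under 0.05. Of all 10 members, 40.0% were called higher, beside 12.7% of all genes tested, and 0 were called lower, beside 10.4%. No member was lower at an unadjusted p under 0.05 in edgeR, and DESeq2 and limma-voom called 0 lower as well. The median log2 fold change was 0.32 over the GBP members and -0.05 over the IRG members, beside 0.01 over all tested genes. The groups did not overlap for 4 members that were higher and 1 that was lower after S1P (Igtp), 5 of 10 in all, beside 23.0%, 22.6% and 45.6% of all tested genes. With an adjusted p alone and no limit on the fold, the same count of 4 members passed, beside 28.5% of all tested genes. Whether the families differed in their response was not tested, since no test was made on a value summed over members chosen with earlier results known.

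Gbp5 and Gbp7, which lie next to each other in the GBP cluster of chromosome 3, showed the largest changes among the members. Gbp5 (ENSMUSG00000105504, chr3:142199739-142228105 of GRCm39, plus strand), a GBP with a prenylation motif that is known for its part in inflammasome assembly, was at 329, 319 and 333 CPM in vehicle-treated replicates 1, 2 and 3 and at 513, 510.1 and 501 CPM in S1P-treated replicates 1, 2 and 3. The groups were separated by a gap many times wider than the spread within either of them, and S1P-treated replicate 2 did not stand apart for this gene. Gbp5 was 1.55-fold higher, with a log2 fold change of 0.64 ± 0.06 (SE, 95% interval 0.50 to 0.77, adjusted p = 6.26e-05 in edgeR). Gbp7 (ENSMUSG00000040253, chr3:142236044-142255910), which is known from work on oxidative killing in macrophages, was at 223, 212 and 202 CPM in the vehicle-treated samples and at 301, 371 and 308 CPM in the S1P-treated samples. All S1P-treated samples were above all vehicle-treated samples, with replicate 2 the highest. The log2 fold change of Gbp7 was 0.62 ± 0.09 (SE, 95% interval 0.43 to 0.81, adjusted p = 0.000458 in edgeR) and was 0.52 without S1P-treated replicate 2. Both genes kept their calls in all 15 alternative fits, in which the log2 fold change ranged from 0.61 to 0.66 for Gbp5 and from 0.52 to 0.68 for Gbp7. Of the exon bases of Gbp5 and Gbp7, 7.8% and 5.1% lie opposite the gene Gm66604 on the other strand, and 10.6% of those of Gbp7 lie under Gm43802 on its own strand. The strand setting of the counting is not given in the sources used here, so reads of these genes may not have been told apart in those stretches.

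Gbp2 and Gbp3, from the same cluster, rose less. Gbp2 (ENSMUSG00000028270, chr3:142326349-142343779), a prenylated GBP that gathers on the vacuoles of intracellular pathogens, was at 1421, 1309 and 1498 CPM in vehicle-treated samples and at 1601, 1924 and 1780.5 CPM in S1P-treated samples. The groups did not overlap, but the lowest S1P-treated sample lay closer to the highest vehicle-treated sample than to the other S1P-treated samples. The log2 fold change of Gbp2 was 0.33 ± 0.09 (SE, 95% interval 0.13 to 0.52, adjusted p = 0.0174 in edgeR). Gbp3 (ENSMUSG00000028268, chr3:142265731-142278979), which is less well characterised, was at 79.6, 75.7 and 84.2 CPM in vehicle-treated samples and at 93.5, 106 and 99.1 CPM in S1P-treated samples, again without overlap. Its log2 fold change was 0.32 ± 0.07 (SE, 95% interval 0.16 to 0.48, adjusted p = 0.00816 in edgeR). Both values sit just above the fold limit of 0.3. In fits with a library left out, Gbp2 kept its call in 2 of 6 and Gbp3 in 4 of 6. Without S1P-treated replicate 2 the log2 fold changes were 0.26 for Gbp2 and 0.27 for Gbp3, under the limit, although the adjusted p of edgeR stayed under 0.05 (0.0116 and 0.00634). Without vehicle-treated replicate 2 they were 0.27 for Gbp2 (adjusted p = 0.0946 in edgeR) and 0.28 for Gbp3 (adjusted p = 0.0494 in edgeR). Gbp2 was also not called without vehicle-treated replicate 1 (0.33, adjusted p = 0.0638 in edgeR) and without S1P-treated replicate 3 (0.31, adjusted p = 0.0562 in edgeR).

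The promoters of these 4 GBP genes are shown because the genes rose together and because their interferon elements can be read in the sequence. Each line gives the 170 bases before the annotated start, 5′ to 3′ on the strand of the gene, from RefSeq promoter windows of build GRCm38.p6, and capitals mark ISRE matches (GAAANNGAAA) and GAS matches (TTCNNNGAA), searched on both strands. Position -1 is the base just before the start. Gbp5 is at chr3:142496764-142496933, Gbp7 at chr3:142530166-142530335, Gbp3 at chr3:142559874-142560043 and Gbp2 at chr3:142620493-142620662, all on the plus strand of GRCm38.p6.
Gbp5: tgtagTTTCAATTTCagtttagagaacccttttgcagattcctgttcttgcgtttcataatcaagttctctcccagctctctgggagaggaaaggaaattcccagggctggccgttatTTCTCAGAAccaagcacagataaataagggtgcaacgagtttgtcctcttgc
Gbp7: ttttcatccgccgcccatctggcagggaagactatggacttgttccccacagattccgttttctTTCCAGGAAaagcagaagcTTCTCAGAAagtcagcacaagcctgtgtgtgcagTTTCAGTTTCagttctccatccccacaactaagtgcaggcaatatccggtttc
Gbp3: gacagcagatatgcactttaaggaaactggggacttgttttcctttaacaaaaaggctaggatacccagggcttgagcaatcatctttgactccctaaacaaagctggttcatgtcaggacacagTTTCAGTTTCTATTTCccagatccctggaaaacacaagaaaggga
Gbp2: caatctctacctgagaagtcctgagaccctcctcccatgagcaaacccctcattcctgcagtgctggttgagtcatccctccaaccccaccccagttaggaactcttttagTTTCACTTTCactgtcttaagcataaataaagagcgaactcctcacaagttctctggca
Each of these stretches held an ISRE match, which read TTTCAATTTC from -165 to -156 in Gbp5, TTTCAGTTTC from -53 to -44 in Gbp7 and TTTCACTTTC from -59 to -50 in Gbp2. Gbp3 had a pair of ISRE matches that overlap, TTTCAGTTTC from -45 to -36 and TTTCTATTTC from -39 to -30. A GAS match, TTCTCAGAA, stood at -52 to -44 in Gbp5 and at -87 to -79 in Gbp7, and Gbp7 had another, TTCCAGGAA, at -106 to -98. A GAS match of Gbp5 at -245 to -237 lies outside the stretch shown. Both members with the largest changes held a GAS match, while no such letters were found in the windows of Gbp2 and Gbp3. A further RefSeq window of Gbp3 that starts later held neither motif. Among all 32851 windows of the same length (250 bases before to 50 after a start), 3.44% held an ISRE match and 8.3% a GAS match. A match is a run of letters and no evidence of binding in these cells.

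The GBP members on chromosome 5 did not pass the test. Gbp4 (ENSMUSG00000079363, chr5:105263633-105287609 of GRCm39, minus strand) was at 461, 414 and 492 CPM in vehicle-treated samples and at 402, 439 and 410.1 CPM in S1P-treated samples, so that the groups overlapped. The log2 fold change of Gbp4 was -0.13 ± 0.08 (SE, 95% interval -0.30 to 0.04, adjusted p = 0.246 in edgeR). Gbp6 (ENSMUSG00000104713, chr5:105418568-105443751, minus strand) was at 69.4, 61.0 and 65.9 CPM in vehicle-treated samples and at 72.1, 66.4 and 64.0 CPM in S1P-treated samples. These groups overlapped too, and the log2 fold change was 0.05 ± 0.08 (SE, 95% interval -0.12 to 0.21, adjusted p = 0.695 in edgeR). The value of Gbp6 is uncertain, because 66.4% of its 31-base stretches occur in other genes and 25.4% of its exon bases lie under Gm43302, a gene with 2 counts in 1 vehicle-treated sample and 0 in the other samples. Gbp10 has 74.9% of its own 31-base stretches in common with other genes, most often with Gbp6. When the counts of Gbp6, Gbp10 and Gm43302 were summed, a unit chosen after the data were seen, the sum was at 97.3, 82.9 and 95.6 CPM in vehicle-treated samples and at 119, 115 and 109 CPM in S1P-treated samples. The sum was called higher, with a log2 fold change of 0.31 ± 0.08 (SE, adjusted p = 0.0111 in edgeR). The sum includes Gbp10, which was called higher on its own, and how the counting divided reads between the copies was not tested.

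Among the IRG members, the regulators were at or slightly below the vehicle level. Igtp (ENSMUSG00000078853, chr11:58089840-58098417 of GRCm39, plus strand) was at 419, 419 and 431 CPM in vehicle-treated samples and at 390.1, 368 and 399.7 CPM in S1P-treated samples. All S1P-treated samples were below all vehicle-treated samples, but Igtp did not pass the test, with a log2 fold change of -0.13 ± 0.07 (SE, 95% interval -0.28 to 0.01, adjusted p = 0.153 in edgeR). Irgm1 (ENSMUSG00000046879, chr11:48752795-48763164, minus strand) was at 366, 318 and 372 CPM in vehicle-treated samples and at 356, 314 and 338 CPM in S1P-treated samples. The Irgm1 samples of both groups were interleaved, with the second replicate the lowest in each, and the log2 fold change was -0.07 ± 0.08 (SE, 95% interval -0.24 to 0.11, adjusted p = 0.563 in edgeR). Irgm2 (ENSMUSG00000069874, chr11:58090444-58113615, plus strand) was at 105, 102 and 110.1 CPM in vehicle-treated samples and at 110.2, 102 and 96.7 CPM in S1P-treated samples. These groups also overlapped, and the log2 fold change of Irgm2 was -0.04 ± 0.07 (SE, 95% interval -0.20 to 0.11, adjusted p = 0.703 in edgeR). Igtp and Irgm2 overlap on the plus strand over 3.6% and 4.3% of their exon bases. On the other strand, 7.8% of the exon bases of Irgm1 and 7.7% of those of Irgm2 lie opposite another gene.

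Iigp1 (ENSMUSG00000054072, chr18:60506680-60525706, plus strand), the effector among the IRG members, was at 587, 532 and 607 CPM in vehicle-treated samples and at 559, 760.1 and 618 CPM in S1P-treated samples. S1P-treated replicate 2 was far above the other samples, and S1P-treated replicate 1 lay between vehicle-treated samples. The log2 fold change of Iigp1 was 0.17 ± 0.11 (SE, 95% interval -0.06 to 0.40, adjusted p = 0.266 in edgeR), and it was 0.03 without S1P-treated replicate 2. The upper ends of the intervals of Irgm1, Irgm2 and Igtp, which are between 0.01 and 0.11, lie below the log2 fold changes of the 4 GBP members that rose. The interval of Iigp1 reaches 0.40 and includes the values of Gbp2 and Gbp3.

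**Figure D1:**
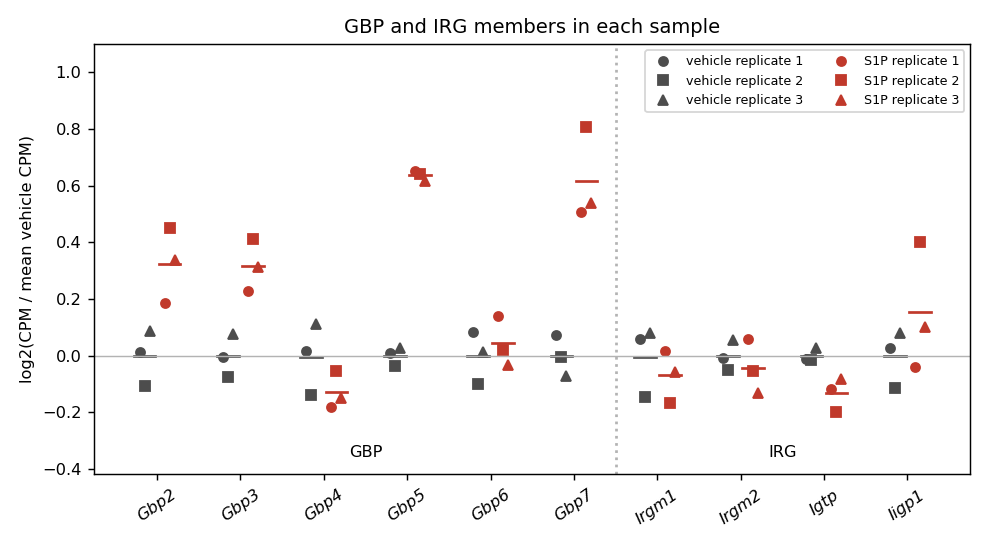
Each point is a sample, plotted as the log2 ratio of its CPM to the mean CPM of the 3 vehicle-treated samples, with short lines for group means, grey for vehicle and red for S1P, and a different symbol for each replicate. For Gbp2, Gbp3, Gbp5 and Gbp7 all red points are above all grey points, for Igtp all are below, and S1P-treated replicate 2 (squares) is the highest sample of Gbp2, Gbp3, Gbp7 and Iigp1.

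The promoter windows of the IRG regulators, whose genes did not pass the test, are shown for comparison with those of the GBP genes. Each holds an ISRE match, and the windows of Igtp and Irgm2 also hold a GAS match. They are given as for the GBP genes, from RefSeq windows of GRCm38.p6, with ISRE and GAS matches in capitals. Irgm1 is at chr11:48871421-48871590 on the minus strand, Igtp at chr11:58199386-58199555 and Irgm2 at chr11:58214807-58214976 on the plus strand.
Irgm1: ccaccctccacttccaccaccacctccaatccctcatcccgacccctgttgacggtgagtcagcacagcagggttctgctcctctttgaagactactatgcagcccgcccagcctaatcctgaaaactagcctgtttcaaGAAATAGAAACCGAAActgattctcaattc
Igtp: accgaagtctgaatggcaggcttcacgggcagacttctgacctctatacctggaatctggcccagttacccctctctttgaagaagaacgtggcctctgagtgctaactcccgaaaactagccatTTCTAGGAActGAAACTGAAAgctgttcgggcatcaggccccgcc
Irgm2: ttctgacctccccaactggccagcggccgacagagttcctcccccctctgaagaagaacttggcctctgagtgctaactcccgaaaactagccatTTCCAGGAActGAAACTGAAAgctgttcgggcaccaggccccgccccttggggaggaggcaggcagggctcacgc
Irgm1 held a pair of overlapping ISRE matches, GAAATAGAAA from -30 to -21 and GAAACCGAAA from -24 to -15. In Igtp a GAS match was followed after 2 bases by an ISRE match, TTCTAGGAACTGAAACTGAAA from -45 to -25, and Irgm2 held the like element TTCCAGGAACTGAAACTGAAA from -75 to -55. The windows of Igtp and Irgm2 were identical at 244 of 300 bases (81.3%), and no other pair of member windows was above 56.3%. The joined element, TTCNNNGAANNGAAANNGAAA on either strand, occurred in 5 of the 32851 windows (0.0152%), all of them of genes at the IRG loci of chromosome 11: Igtp, Irgm2, Tgtp1, Tgtp2 and Gm12185. All 5 genes were tested, and their log2 fold changes were -0.13, -0.04, -0.15, 0.15 and 0.17, with no call. Of 10 members, 7 had a window, all 7 held an ISRE match and 4 (Gbp5, Gbp7, Igtp and Irgm2) a GAS match, so the presence of these letters did not separate the members that rose from those that did not. Among 364 tested genes with an ISRE match, 20.9% were called higher and 7.97% lower, beside 13.4% and 11.5% of the 9337 tested genes that have a window. Among 784 tested genes with a GAS match, 14.4% were called higher and 11.4% lower. For Gbp4, Gbp6 and Iigp1 no sequence is printed.

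Within each sample, the balance of the families could be read from their summed levels. The 6 GBP members summed to 2583, 2390.1 and 2675 CPM in vehicle-treated samples and to 2983, 3417 and 3163 CPM in S1P-treated samples. The 4 IRG members summed to 1478, 1371 and 1520.5 CPM in vehicle-treated samples and to 1415.5, 1544 and 1452 CPM in S1P-treated samples. The GBP sum was higher in every S1P-treated sample than in any vehicle-treated sample, and the IRG sums of the groups overlapped. The ratio of the GBP sum to the IRG sum, which does not depend on the scaling of the library, was 1.75, 1.74 and 1.76 in vehicle-treated samples and 2.11, 2.21 and 2.18 in S1P-treated samples. Its mean was 1.75 ± 0.00833 (SD, n = 3) in vehicle-treated samples and 2.17 ± 0.0541 (SD, n = 3) in S1P-treated samples, and no test was made on it. All 10 members together took 0.401% ± 0.0222 (SD, n = 3) of the scaled counts in vehicle-treated samples and 0.466% ± 0.0284 (SD, n = 3) in S1P-treated samples. Of the reads of the members, not corrected for length, 35.2% ± 0.484 came from Gbp2 in vehicle-treated samples and 37.9% ± 1.32 in S1P-treated samples (SD, n = 3 each).

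When each member's log2 CPM was taken relative to the mean of all 10 in the same sample, Gbp3, Gbp5 and Gbp7 were above their vehicle-treated values in all S1P-treated samples, by 0.14, 0.46 and 0.44 on average. Gbp4, Irgm1, Irgm2 and Igtp were below them in all S1P-treated samples, with differences of -0.30, -0.24, -0.22 and -0.31 on the same scale. Gbp2, Gbp6 and Iigp1 overlapped between the groups. These relative differences sum to 0 over the members by construction and describe only how the members changed against each other.

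**Figure D2:**
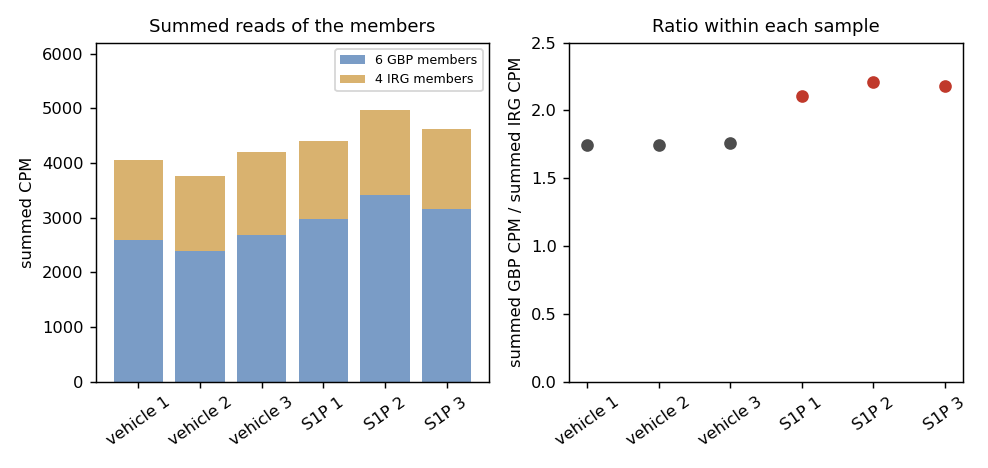
The bars stack the summed CPM of the 6 GBP members (blue) and of the 4 IRG members (ochre) in each sample, and the points give the ratio of the sums in the same sample, grey for vehicle and red for S1P. The IRG part stays between 1371 and 1544 CPM in all 6 samples while the ratio goes from 1.74 to 1.76 in vehicle-treated samples to 2.11 to 2.21 in S1P-treated samples.

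The members differed widely in level. Per kilobase of exon in GRCm39 (CPM per kb), Gbp2 was the highest in vehicle-treated samples at 550.2 ± 37.2 (SD, n = 3), well above all other members. Igtp at 92.8 ± 1.53 and Iigp1 at 90.4 ± 6.13 CPM per kb followed and overlapped each other. Irgm1 at 55.4 ± 4.63, Gbp4 at 47.0 ± 4.04 and Gbp5 at 44.9 ± 0.975 CPM per kb came next, each of which overlapped its neighbour. Below them stood Gbp7 at 35.4 ± 1.75, Irgm2 at 28.3 ± 1.04, Gbp3 at 18.8 ± 0.9996 and Gbp6 at 9.63 ± 0.622 CPM per kb, which were separated from one another in all samples (SD, n = 3 each). In S1P-treated samples Gbp2 was again the highest at 691 ± 63.3 and Gbp6 the lowest at 9.94 ± 0.617 CPM per kb. After S1P the order differed in the middle, where Gbp5 at 69.7 ± 0.857 CPM per kb lay above Gbp7 at 54.6 ± 6.44, Irgm1 at 52.9 ± 3.35 and Gbp4 at 43.0 ± 2.01. Gbp7 and Irgm1 overlapped there, whereas every vehicle-treated sample had more Irgm1 than Gbp7 per kb. Iigp1 at 101 ± 16.3 CPM per kb stood above Igtp at 84.7 ± 3.55 after S1P.

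**Figure D3:**
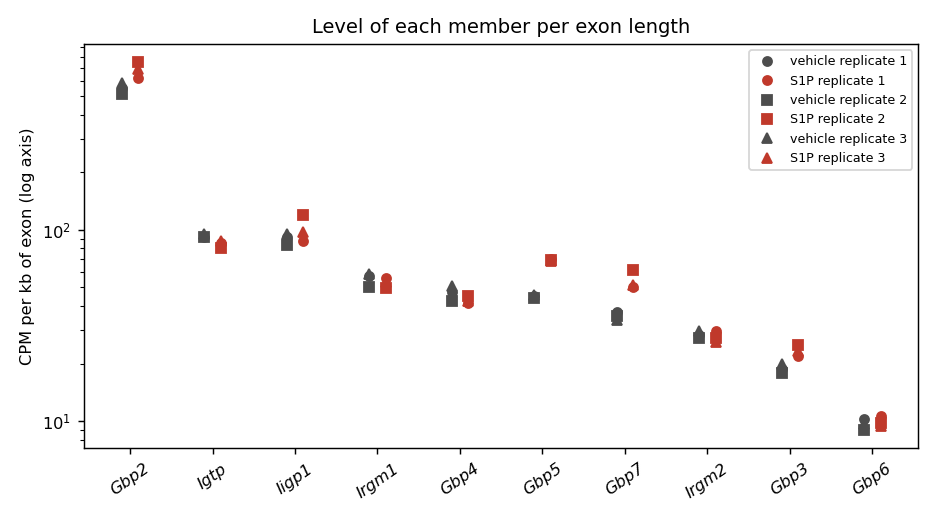
The level of each member in CPM per kb of exon is plotted on a log axis, with a point for every sample, grey for vehicle and red for S1P. Gbp2 lies far above the rest at 511 to 751 CPM per kb and Gbp6 far below at 8.98 to 10.6, and Gbp5 moves from the level of Gbp4 to above it.

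The rest of the GTPase families was examined in the same way. The median log2 fold change of the 11 GBP genes tested was 0.34. Of these 11 genes 0 fell, beside 10.4% of all tested genes, and 7 rose (63.6%), beside 12.7%. Besides the 4 members these were Gbp10, Gbp9 and Gbp8 of chromosome 5. Gbp9 was at 151, 129 and 147 CPM in vehicle-treated samples and at 212, 238 and 191 CPM in S1P-treated samples, with a log2 fold change of 0.59 ± 0.09 (SE, adjusted p = 0.000861 in edgeR). Gbp10 was at 27.8, 22.0 and 29.6 CPM and at 47.2, 48.6 and 44.6 CPM in the respective groups, with a log2 fold change of 0.82 ± 0.11 (SE, adjusted p = 0.000273 in edgeR), and its reads may be divided with Gbp6. Gbp8 was at 45.7, 43.5 and 49.3 CPM and at 60.0, 82.9 and 57.0 CPM, with S1P-treated replicate 2 well above the others. The log2 fold change of Gbp8 was 0.52 ± 0.12 (SE, adjusted p = 0.00939 in edgeR), and it was 0.34 without that replicate, still called. None of the samples overlapped between the groups for these 3 genes. Gbp2b, also known as Gbp1 in the older literature, and Gbp11 were low, at 1.90 to 4.64 and 4.39 to 6.46 CPM, and had log2 fold changes of 0.34 and 0.19 (adjusted p = 0.373 and 0.428 in edgeR). With single samples left out, Gbp2b ran from 0.06 to 0.50 and Gbp11 from 0.09 to 0.28, with no call. By locus, 4 of the 5 GBP genes on chromosome 3 and 3 of the 6 on chromosome 5 were called higher. The number of GBP genes called higher was between 5 and 7 when single libraries were left out, and it was 5 when vehicle-treated replicate 2 or S1P-treated replicate 2 was the one left out.

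The median log2 fold change of the 14 IRG genes tested was -0.01. Beside 12.7% of all tested genes called higher and 10.4% called lower, 3 of these 14 rose (21.4%) and 0 fell. The first of these, 9930111J21Rik2 on chromosome 11, was at 15.9, 14.7 and 15.1 CPM in vehicle-treated samples and at 30.4, 45.0 and 24.1 CPM in S1P-treated samples, with a log2 fold change of 1.11 ± 0.18 (SE, adjusted p = 0.00117 in edgeR). Its neighbour 9930111J21Rik1 had a log2 fold change of 0.66 ± 0.18 (SE, adjusted p = 0.0169 in edgeR) and has 88.5% of its 31-base stretches in common with other genes, most often with the former. Summed, both genes were at 26.1, 22.4 and 21.7 CPM and at 45.5, 58.2 and 34.5 CPM, with a log2 fold change of 0.97 ± 0.16 (SE, adjusted p = 0.00108 in edgeR). Taken alone, 9930111J21Rik1 was not called without vehicle-treated replicate 2 (0.62, adjusted p = 0.0642 in edgeR), vehicle-treated replicate 3 (0.53, adjusted p = 0.0800 in edgeR) or S1P-treated replicate 1 (0.52, adjusted p = 0.0547 in edgeR). The remaining one was Iigp1c, a neighbour of Iigp1 on chromosome 18, at 21.6, 19.2 and 21.3 CPM in vehicle-treated samples and at 26.7, 26.9 and 24.7 CPM in S1P-treated samples. Iigp1c had a log2 fold change of 0.33 ± 0.09 (SE, adjusted p = 0.0175 in edgeR) and was not called without vehicle-treated replicate 2 (0.28, adjusted p = 0.0799 in edgeR) or 3 (0.35, adjusted p = 0.0536 in edgeR). With vehicle-treated replicate 2 or 3 left out, 1 IRG gene was called.

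No other IRG gene passed the test. Ifi47 (Irgd), an effector, had a log2 fold change of -0.18, Gm12250 (Irgb10), which is known from the attack on bacterial membranes, one of -0.06, and Irgq, a distant relative, one of -0.13 (adjusted p = 0.24, 0.563 and 0.422 in edgeR). All exon bases of Gm12250 lie under a second gene of the same symbol. Tgtp1 and Tgtp2 (both Irgb6) are near-identical copies with log2 fold changes of -0.15 and 0.15. Their summed counts were at 289.6, 268 and 291 CPM in vehicle-treated samples and at 289.7, 274 and 282 CPM in S1P-treated samples, with a log2 fold change of -0.0050 (adjusted p = 0.964 in edgeR). Gm5431 and F830016B08Rik, both under 6 CPM in all samples, had values of 0.44 and 0.02 with no call, and Irgc had too few counts to be tested. Over the 6 fits with a sample left out, the values ran from -0.30 to -0.04 for Ifi47, from -0.21 to -0.05 for Irgq, from -0.25 to -0.03 for Tgtp1, from 0.07 to 0.20 for Tgtp2, from 0.15 to 0.65 for Gm5431 and from -0.12 to 0.13 for F830016B08Rik, with no call in any of them. Ifi47 was at its lowest without S1P-treated replicate 1, where it passed the adjusted p (0.0404 in edgeR) and missed the fold limit of 0.3, and at its highest without S1P-treated replicate 2. The very large interferon-inducible GTPases (GVINs) of chromosome 7 had 0 of 3 genes called, with 0.05 for Gvin1, -0.05 for Gvin2 and 0.27 for Gvin3, which passed the adjusted p (0.0377 in edgeR) but not the fold. At an unadjusted p under 0.05 Gvin3 was the only one of the 3, and DESeq2 and limma-voom called 0. Gvin1 and Gvin2 share nearly all of their sequence and gave -0.02 when summed. Gvin3 passed both limits without vehicle-treated replicate 1 (0.35, adjusted p = 0.0347 in edgeR) or S1P-treated replicate 1 (0.32, adjusted p = 0.0191 in edgeR).

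**Figure D4:**
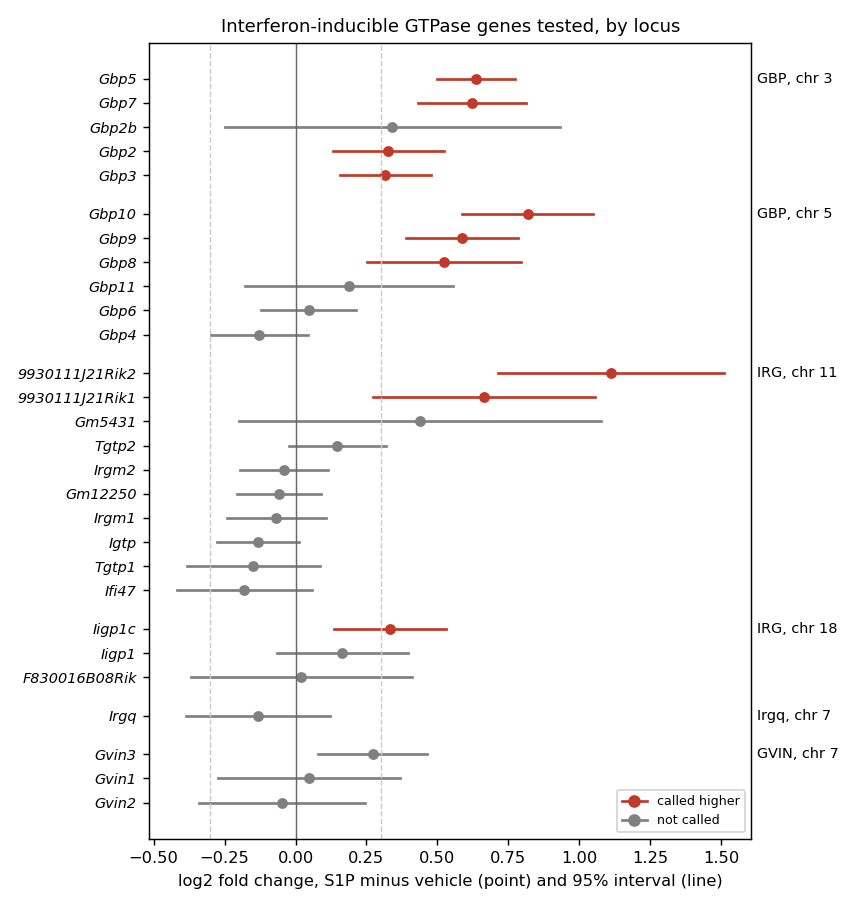
Points are log2 fold changes of S1P over vehicle for the 28 tested genes of the GBP, IRG and GVIN families, lines are 95% intervals, and dashed lines mark the fold limit of 0.3 in either direction. Red marks genes called higher, 7 of 11 GBP genes and 3 of 14 IRG genes, and no gene was called lower.

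Beside the same shares of all tested genes, 12.7% higher and 10.4% lower, 2 of 9 other dynamin-like GTPase genes rose (22.2%) and none fell. These were the antiviral GTPase genes Mx2 and Mx1, both on chromosome 16, with log2 fold changes of 2.46 ± 0.32 (SE, adjusted p = 0.000276 in edgeR) and 1.71 ± 0.27 (SE, adjusted p = 0.000941 in edgeR). Mx2 was at 2.70, 1.54 and 1.41 CPM in vehicle-treated samples and at 12.0, 13.7 and 6.11 CPM in S1P-treated samples, and Mx1 at 5.00, 3.37 and 5.07 CPM and at 13.9, 21.6 and 9.40 CPM. All S1P-treated samples of both genes were above all vehicle-treated samples, and S1P-treated replicate 2 was the highest. At an unadjusted p under 0.05, 0 genes of the list were lower. The atlastins, dynamins and mitofusins of the list did not pass the test.

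The genes that act upstream of the members were described by their role, beside 12.7% of all tested genes called higher and 10.4% called lower. The ligands came first. Ifng, which encodes interferon gamma, fell. It was at 198, 219 and 211 CPM in vehicle-treated samples and at 134, 168 and 143 CPM in S1P-treated samples, without overlap, and had a log2 fold change of -0.50 ± 0.09 (SE, adjusted p = 0.00162 in edgeR). Of its exon bases, 25.9% lie under Gm49751 on the same strand. Il12a and Il18, which encode inducers of interferon gamma, were at or under 1.58 CPM and did not pass the test, and Ifnb1 (0 counts in all samples) and Il27 were not tested.

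Among 8 receptor and kinase genes, Jak2 and Ifngr2 rose and Il27ra fell. Jak2, the kinase bound to the interferon gamma receptor, was at 459, 378 and 443 CPM in vehicle-treated samples and at 709, 823 and 715.5 CPM in S1P-treated samples, with a log2 fold change of 0.81 ± 0.09 (SE, adjusted p = 0.000123 in edgeR). Ifngr2, the signalling chain of that receptor, had a log2 fold change of 0.45 ± 0.09 (SE, adjusted p = 0.0031 in edgeR), and its ligand-binding chain Ifngr1 one of 0.24 (adjusted p = 0.129 in edgeR). Ifngr1 passed both limits without vehicle-treated replicate 2 (0.38, adjusted p = 0.0254 in edgeR) or S1P-treated replicate 2 (0.31, adjusted p = 0.0369 in edgeR). Il27ra, a receptor chain for interleukin 27, had a log2 fold change of -0.35 (adjusted p = 0.0421 in edgeR) and was no longer called in 5 of the 6 fits with a library left out. These were the fits without vehicle-treated replicate 1, 2 or 3 (adjusted p = 0.0809, 0.102 and 0.137 in edgeR) and without S1P-treated replicate 2 (log2 fold change -0.21) or 3 (adjusted p = 0.0704 in edgeR). Ifnar1, Ifnar2, Jak1 and Tyk2 did not pass the test, with log2 fold changes of 0.07, -0.22, 0.11 and -0.07.

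Of the 8 tested transcription factors in this list, 3 rose. The list does not hold every interferon regulatory factor, and any placed among the type I targets is counted there, further below. Stat2 was at 60.0, 57.7 and 65.0 CPM in vehicle-treated samples and at 111, 127 and 107 CPM in S1P-treated samples, with a log2 fold change of 0.92 ± 0.08 (SE, adjusted p = 3.69e-05 in edgeR). Irf9, the DNA-binding partner of STAT2 at the ISRE, had a log2 fold change of 0.56 (adjusted p = 0.00156 in edgeR) and Stat3 one of 0.51 (adjusted p = 0.00134 in edgeR). Irf1, a further activator of the members, had one of -0.06, Irf8 one of 0.13 and Nlrc5, the activator of class I genes, one of -0.06, and none of these passed the test. Of the exon bases of Irf1, 46.0% lie opposite other genes. Irf2, a repressor at the same elements, had a log2 fold change of 0.2997 (adjusted p = 0.0377 in edgeR), just under the fold limit, and was over it without S1P-treated replicate 1 (0.39). Batf2 had too few counts for a test.

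Inhibitors of the pathway followed, with 3 of 7 higher and none lower. Usp18, which restrains the type I receptor, had a log2 fold change of 1.05 ± 0.17 (SE, adjusted p = 0.000994 in edgeR), Socs3, which restrains receptors that signal through STAT3, one of 0.84 ± 0.09 (SE, adjusted p = 0.000123 in edgeR), and the phosphatase gene Ptpn2 one of 0.43 ± 0.10 (SE, adjusted p = 0.00737 in edgeR). Socs1, the main inhibitor of the interferon gamma receptor, was at 21.6, 19.8 and 24.4 CPM and at 28.3, 20.1 and 17.9 CPM in the respective groups, and its log2 fold change was 0.02 (95% interval -0.31 to 0.36, adjusted p = 0.926 in edgeR). Ptpn1 (-0.17), Ptpn6 (0.07) and Pias1 (0.03) were not called. Of the exon bases of Socs3 and Socs1, 11.8% and 12.4% lie opposite other genes.

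**Figure D5:**
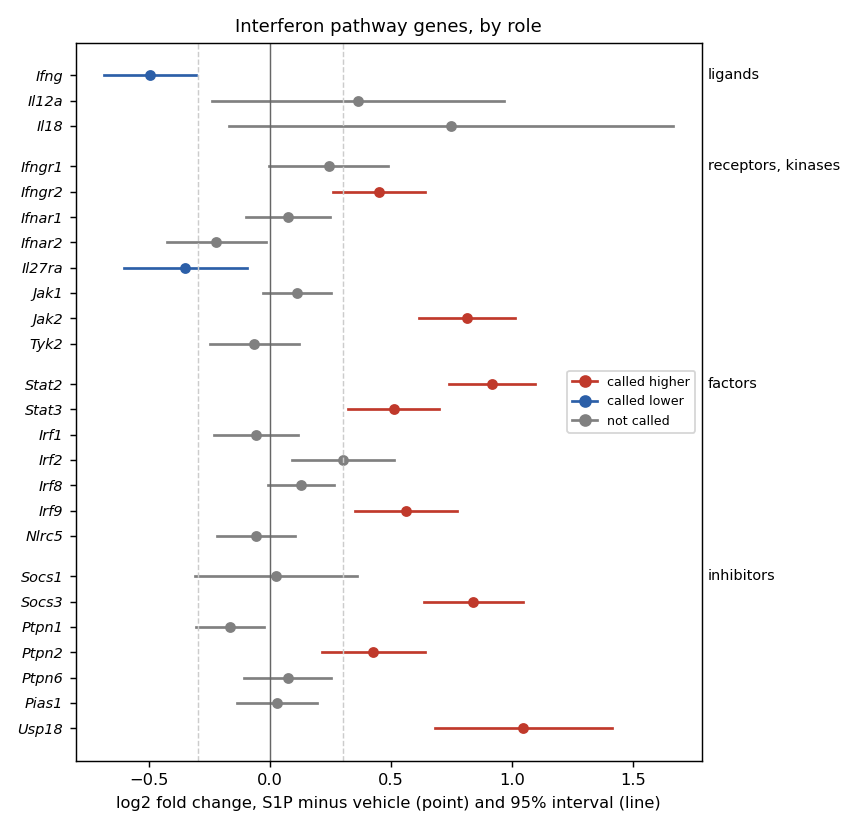
Log2 fold changes of S1P over vehicle with 95% intervals for ligands, receptors and kinases, transcription factors and inhibitors of interferon signalling, with dashed lines at the fold limit of 0.3 in either direction. Ifng and Il27ra (blue) were called lower, 8 genes (red) from Ptpn2 at 0.43 to Usp18 at 1.05 were called higher, and Irf1 and Nlrc5 lie near 0.

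Other targets of interferon gave a frame for the members. Their counts stand beside 12.7% of all tested genes called higher and 10.4% called lower. Of 20 genes known as interferon gamma targets, such as those of the immunoproteasome and of peptide loading, 2 were higher and 4 lower, and the median log2 fold change was -0.05. The number of lower genes was between 2 and 4 when single samples were left out, and it was 2 without vehicle-treated replicate 1, vehicle-treated replicate 3 or S1P-treated replicate 2, and also with upper quartile factors, where 3 were higher. Of the lower genes, Ciita kept its call in 1 and Serpina3g in 2 of these 6 fits with a sample left out. The chemokine gene Cxcl10 (1.66, adjusted p = 0.000116 in edgeR) and Parp14 (0.55, adjusted p = 0.00121 in edgeR) rose, and the immunoproteasome subunit gene Psmb10 (-0.62, adjusted p = 0.00584 in edgeR) and the peptidase gene Lap3 (-0.37, adjusted p = 0.00269 in edgeR) showed the largest falls. Of 18 genes known mainly as type I interferon targets, 16 were higher and none lower, with a median log2 fold change of 1.49. With single samples left out, 15 or 16 were higher, and none was lower except without S1P-treated replicate 1, where Bst2 was (-0.41). Oas1a kept its call in 1 of these 6 fits. Rsad2 (4.13, adjusted p = 0.000209 in edgeR) and Ifi44 (3.30, adjusted p = 0.000249 in edgeR) changed most, and both were under 1 CPM in all vehicle-treated samples. The GBP members, with a median of 0.32, and the IRG members, with a median of -0.05, both lay below the median of these type I targets. The lists overlap in biology, since many of their genes respond to both kinds of interferon, and they were written with earlier results of these data known.

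Genes on which the GTPase proteins depend were read beside the 23.1% of all tested genes that were called in either direction. Of 12 genes of the ATG8 conjugation machinery and its partners, 1 rose (Atg12, 0.35, adjusted p = 0.00557 in edgeR) and 1 fell (Atg5, -0.31, adjusted p = 0.0317 in edgeR), and Atg5 was no longer called in 5 of the 6 fits with a library left out, with the one without S1P-treated replicate 3 as the exception. Of 7 tested inflammasome genes, Casp4 rose (0.41, adjusted p = 0.0183 in edgeR) and the adaptor gene Pycard fell (-0.42, adjusted p = 0.0215 in edgeR). Without S1P-treated replicate 2 the value of Casp4 was 0.29, and it also lost its call without vehicle-treated replicate 1 or 2, and Pycard without vehicle-treated replicate 1 or 3. Of 6 prenyltransferase and processing genes 0 were called by edgeR, DESeq2 or limma-voom, and 2 were lower at an unadjusted p under 0.05 in edgeR, Zmpste24 (-0.26) and Rce1 (-0.32).

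Markers of other cell types were set beside the members. Their calls can be read beside 12.7% of all tested genes called higher and 10.4% called lower. The 8 B cell markers summed to 789, 629.6 and 789 CPM in vehicle-treated samples and to 644, 738 and 695 CPM in S1P-treated samples, which overlapped, with 1 of 8 higher (Ebf1, 0.60) and 2 lower (Cd22, -0.44, and Ms4a1, -0.39). Fits with a sample left out had 1 to 2 of them higher and 1 to 3 lower, and Ms4a1 was not called when vehicle-treated replicate 1 or 3 was left out (-0.33 and -0.34). The 4 CD4 T cell markers summed to 249, 229 and 272 CPM and to 251, 319 and 266 CPM in the respective groups, with Cd40lg (0.50) and Zbtb7b (0.37) higher and Cd4 itself at 0.10 without a call. Cd40lg was not called when vehicle-treated replicate 2 or S1P-treated replicate 3 was left out (0.42 and 0.45), which left 1 of the 4 higher. The 5 CD8 T cell markers summed to 2701, 3399 and 2738 CPM in vehicle-treated samples and to 2678, 2757 and 2576 CPM in S1P-treated samples, which overlapped. Of these, 2 fell (Cd8a, -0.67, and Cd8b1, -0.55), while Cd3d (-0.28), Gzmb (-0.10) and Cd3e (0.15) were not called, and 2 to 3 were lower when single samples were left out. The 8 myeloid markers summed to between 2.98 and 5.69 CPM in all samples, with S100a8 at 0 counts in every sample and with only 1 of the 8 high enough to be tested, Cd68, which was at 0.10 on the log2 scale and neither called nor past an unadjusted p of 0.05 in edgeR. The 5 dendritic cell markers summed to 5.98, 4.10 and 5.13 CPM in vehicle-treated samples and to 7.24, 7.09 and 7.52 CPM in S1P-treated samples, and 0 of the 2 tested were called or past an unadjusted p of 0.05. The 4 NK cell markers summed to between 63.3 and 68.4 CPM and to between 32.1 and 44.5 CPM in the respective groups, nearly all of it from Eomes (-0.86), which T cells also use. The part of these cell types in the levels of the GBP and IRG members was not tested.

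The mean profile of the 10 members over the 6 samples was also compared with that of every tested gene outside the lists. The closest genes, by the root mean square difference in log2 CPM after each gene's own mean was subtracted, were Crbn (0.021), Ppp1r18 (0.022), Dusp6 (0.023), Erbin (0.025) and Vps72 (0.025). Their log2 fold changes lay between 0.14 and 0.20, and they were close to each other because the genes were picked by the mean profile of the members. The likeness is a description over 6 samples, and it reflects an average over members that themselves moved in different ways.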

How the data were processed

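RNA was sequenced from 6 samples. Per the submitters' processing notes, the authors trimmed reads with Trim Galore, aligned them to GRCm39 with STAR, counted them per gene with featureCounts and tested them with DESeq2. Versions, annotation release, strand setting and the handling of reads with several matches are not given in the sources used here. The deposited values are whole-number counts, not normalized, from strand-specific libraries of polyadenylated RNA. Symbols, positions and exon lengths came from GENCODE vM39, which holds 56323 of the 56941 identifiers, and promoter windows from RefSeq (GRCm38.p6), matched by symbol. Genes were kept by filterByExpr and tested in R 4.3.3 by edgeR 4.0.16 and limma 3.58.1, in a model of the treatment alone with samples grouped by their labels. Levels are CPM after TMM scaling (log2 with a prior count of 2 where stated). Sequences were searched with Python 3.11.15. The thresholds are those the study used for its differentially expressed genes. Alternatives were DESeq2 1.42.0, limma-voom, other scalings and filters, a replicate block, other fold limits and the fit without each sample. No replicate pair was a duplicate, with a chi-square statistic per gene of at least 3.77 within groups. The members, the lists and the rule for named genes were chosen with earlier results of these data known. That rule named all members, all family genes, the interferon pathway genes by role, and at most the 2 largest changes in each direction of other lists. Outside the rule, some genes whose call changed when a sample was left out and some further markers of cell types were also named. The test was checked on simulated counts. Counts limit the precision of low genes, and intervals cover the spread between these samples. Values of 2 listed genes are not reported here, though counts and sums over their lists include them.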

Additional observations from a re-analysis of the deposited data

How the results depend on the processing

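Gbp5 and Gbp7 kept their calls in all 15 alternative fits, and the 6 members without a call stayed without one in all of them. The sign of each member's log2 fold change was the same in all 15, except for Gbp6, whose sign was the same in 13. The number of members called higher stayed at 4 with DESeq2, limma-voom, RLE or upper quartile factors, without mitochondrially encoded genes, with at least 10 counts in every sample and with an adjusted p alone. It was 2 with total count scaling, where Gbp2 and Gbp3 had log2 fold changes of 0.295 and 0.286, and 2 without a filter on low counts, where they had 0.294 and 0.285. Without a filter the median log2 fold change of all 34414 genes was 0.16, beside 0.01 with it, and the 4 IRG members, Gbp4 and Gbp6 lay below 0.16. That median includes the genes with too few counts for the main test. The members' own values moved little, as for Igtp (from -0.13 to -0.16) and Iigp1 (from 0.17 to 0.13). With a log2 fold change of at least 1, 0 members and 465 of all genes were called. Leaving out single samples gave between 2 and 4 members higher, 0 lower in each fit, and between 2119 and 3228 of all genes called, where the full data gave 3071. With the replicate number as a block, 4 members were higher, 0 lower and 3120 of all genes called. Whether same-numbered samples form pairs is not given in the sources used here. Their deviations from group means correlated at 0.12, -0.006 and 0.048, which cannot settle it with 3 samples in each group. No member changed its call under the block. The counts of Gbp6, Gbp10 and Gm43302 when summed, an alternative added after the data were seen, gave 0.31 on the log2 scale (adjusted p = 0.0111 in edgeR), where Gbp6 alone was at 0.05 and Gbp10 alone at 0.82. The standard errors of the members' log2 fold changes were 0.06 to 0.11.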
